A study of Mus musculus with 51 samples.

Results

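The 9 genes described here encode membrane carriers of glucose, fructose and sugar phosphates. They are Slc5a1, Slc2a1, Slc2a2, Slc2a3, Slc2a4, Slc2a5, Slc2a7, Slc37a2 and Slc37a4, and they were taken by symbol from 6 tables that together list 14606 genes. The tables listed 9 of them in ileum, 8 in duodenum, 8 in jejunum, 7 in liver, 6 in subcutaneous white adipose tissue (WAT) and 5 in gastrocnemius muscle, which makes 43 pairs of a gene and a tissue. A gene that a table does not list was below the authors' filter there, which asked for at least 1 CPM (a read count scaled to the library's total) in as many libraries as the smaller group has. Messenger RNA was profiled in 51 libraries from 10 male C57Bl6 mice made obese by diet. Of these, 5 mice had Roux-en-Y gastric bypass (RYGB), which routes food from a small stomach pouch into the jejunum past the duodenum, and 5 had a sham operation. All mice received a liquid elemental diet after surgery and then returned by steps to a high-fat diet. The sham mice were held to the weight of the RYGB mice by restricting their food, so the operation and the food restriction cannot be told apart. Tissue was taken 9 weeks after surgery, in the morning after an overnight fast. Gut samples were villi scraped after a short time in cold EDTA. The libraries numbered 5 sham and 4 RYGB in duodenum, 5 and 4 in jejunum, 5 and 2 in ileum, 4 and 5 in liver, 5 and 4 in WAT, and 4 and 4 in muscle. The source names of the RYGB muscle libraries say sham, while their titles and surgery fields say RYGB, which was followed here.

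Sugar crosses membranes through families of carriers that differ in what drives them. SGLT1, encoded by Slc5a1, couples glucose and galactose entry at the intestinal brush border to the sodium gradient. The GLUT carriers of the Slc2a family let sugars down their gradients: GLUT5 (Slc2a5) carries fructose across the brush border, GLUT2 (Slc2a2) moves glucose and fructose across the basolateral membrane of enterocytes and the surface of hepatocytes, GLUT1 (Slc2a1) and GLUT3 (Slc2a3) serve basal uptake in many cells, and GLUT4 (Slc2a4) moves to the surface of fat and muscle cells in response to insulin. GLUT7 (Slc2a7) is an intestinal member close to GLUT5. The Slc37a carriers sit in the endoplasmic reticulum, where the Slc37a4 product brings glucose 6-phosphate to glucose 6-phosphatase, the last step of glucose release, and the Slc37a2 product exchanges sugar phosphate for phosphate.

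The libraries summed to 978879 to 993560.1 CPM over the listed genes. Values are gene-level CPM with 1 decimal, and the depth in reads is unknown for most libraries. In liver, 15 to 18 of the low decimals never occurred in sham 1 and 2 and RYGB 2, 3 and 4. In the other liver libraries 0 were absent, so the former moved in coarser steps. In duodenum, 4 libraries (sham 1, 2 and 3 and RYGB 2) held 1.49% to 8.79% of their listed CPM in 15 pancreatic acinar genes (14 of them listed), against at most 0.0814% in the others. The ileum library sham 4 held 41538 CPM in 5 Paneth cell genes and 4225.6 CPM in 8 crypt and proliferation genes, where the other ileum libraries held at most 685.8 and 368.1. The defining markers of each labelled tissue were present: enterocyte genes summed to at least 19644.8 CPM in every gut library, hepatocyte genes to at least 30721.5 CPM in liver, adipocyte genes to at least 8635 CPM in WAT and skeletal muscle genes to at least 64621.1 CPM in muscle. In bulk tissue, fewer cells of a type and less RNA per cell cannot be told apart.

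In the sham mice 1 carrier made up most of the sum once levels were divided by exon length: Slc5a1 in the gut, Slc2a2 in liver, and Slc2a4 in WAT and muscle. In the gut Slc5a1 led, with 1817 ± 538 CPM per kilobase of exon in duodenum (SD, n = 5), 1505 ± 349 in jejunum (n = 5) and 775 ± 334 in ileum (n = 5). It made up 78.2% to 83.3% of the summed CPM per kilobase of the 9 genes in the sham duodenum libraries, 76.2% to 83.2% in jejunum and 74.9% to 89.8% in ileum. Slc2a2 came next in duodenum and jejunum, at 236 ± 116 and 151 ± 55.9 CPM per kilobase. In ileum it stood at 21.6 ± 12.4, behind Slc2a5 at 49.2 ± 17.3 and Slc37a4 at 30.0 ± 5.06. In liver Slc2a2 was 95.2% to 98.4% of the sum in the 4 sham libraries, at 192 ± 48.4 CPM per kilobase. Slc2a4 held 71.0% to 78.1% of it in sham WAT, at 54.3 ± 4.90 CPM per kilobase (n = 5), and 83.7% to 91.3% in sham muscle, at 182 ± 29.8 (n = 4). These shares describe transcripts among the 9 genes only.

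**Figure D1:**
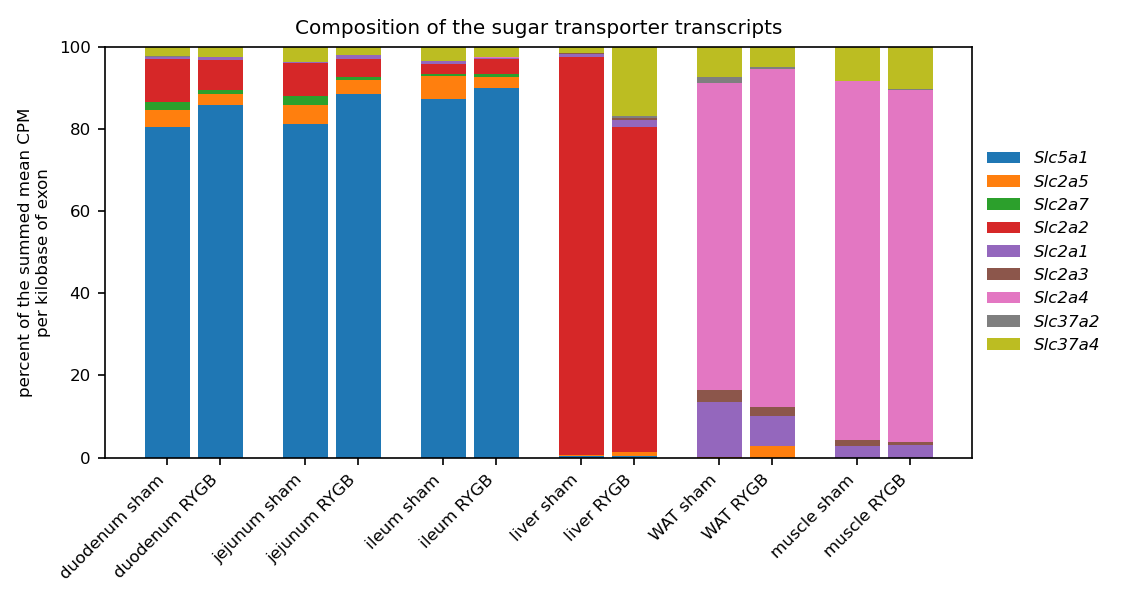
Share of each of the 9 transporter transcripts in their summed mean CPM per kilobase of exon (y axis, percent), for the sham and RYGB group means of each tissue (x axis); genes a table does not list count as 0. Slc5a1 fills most of each gut bar, Slc2a2 most of the liver bars and Slc2a4 most of the WAT and muscle bars, and Slc37a4 takes a visibly larger part of the RYGB than of the sham liver bar.

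Along the sham gut, Slc5a1, Slc2a5 and Slc2a7 each stood higher in duodenum and jejunum, whose ranges overlapped, than in ileum, whose range was apart from that of jejunum. The step was steepest for Slc2a7, from 57.9 to 93.2 CPM in jejunum to 6.4 to 9.2 CPM in ileum. Slc37a2 was high in the sham duodenum only among the gut segments, at 22.6 to 79.2 CPM against 0.8 to 2.6 in jejunum and 0.2 to 4.7 in ileum. Slc37a4 was highest in jejunum, at 160.6 to 231.5 CPM, overlapping duodenum at 111.1 to 183.7, and its lowest sham mean was in liver, at 3.5 to 12.5, overlapping WAT. Slc2a1 was between 6.3 and 50 CPM in all sham libraries of gut, WAT and muscle, with neighbouring tissues overlapping, and between 5 and 5.9 CPM in liver, apart from jejunum, the next in order. Slc2a3 stood at 9.1 to 39.4 CPM in sham muscle and 11 to 18.8 in WAT, which overlapped, and at no more than 2.5 CPM elsewhere apart from 1 ileum library at 9.4. These levels in different tables are set side by side without a test.

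**Figure D2:**
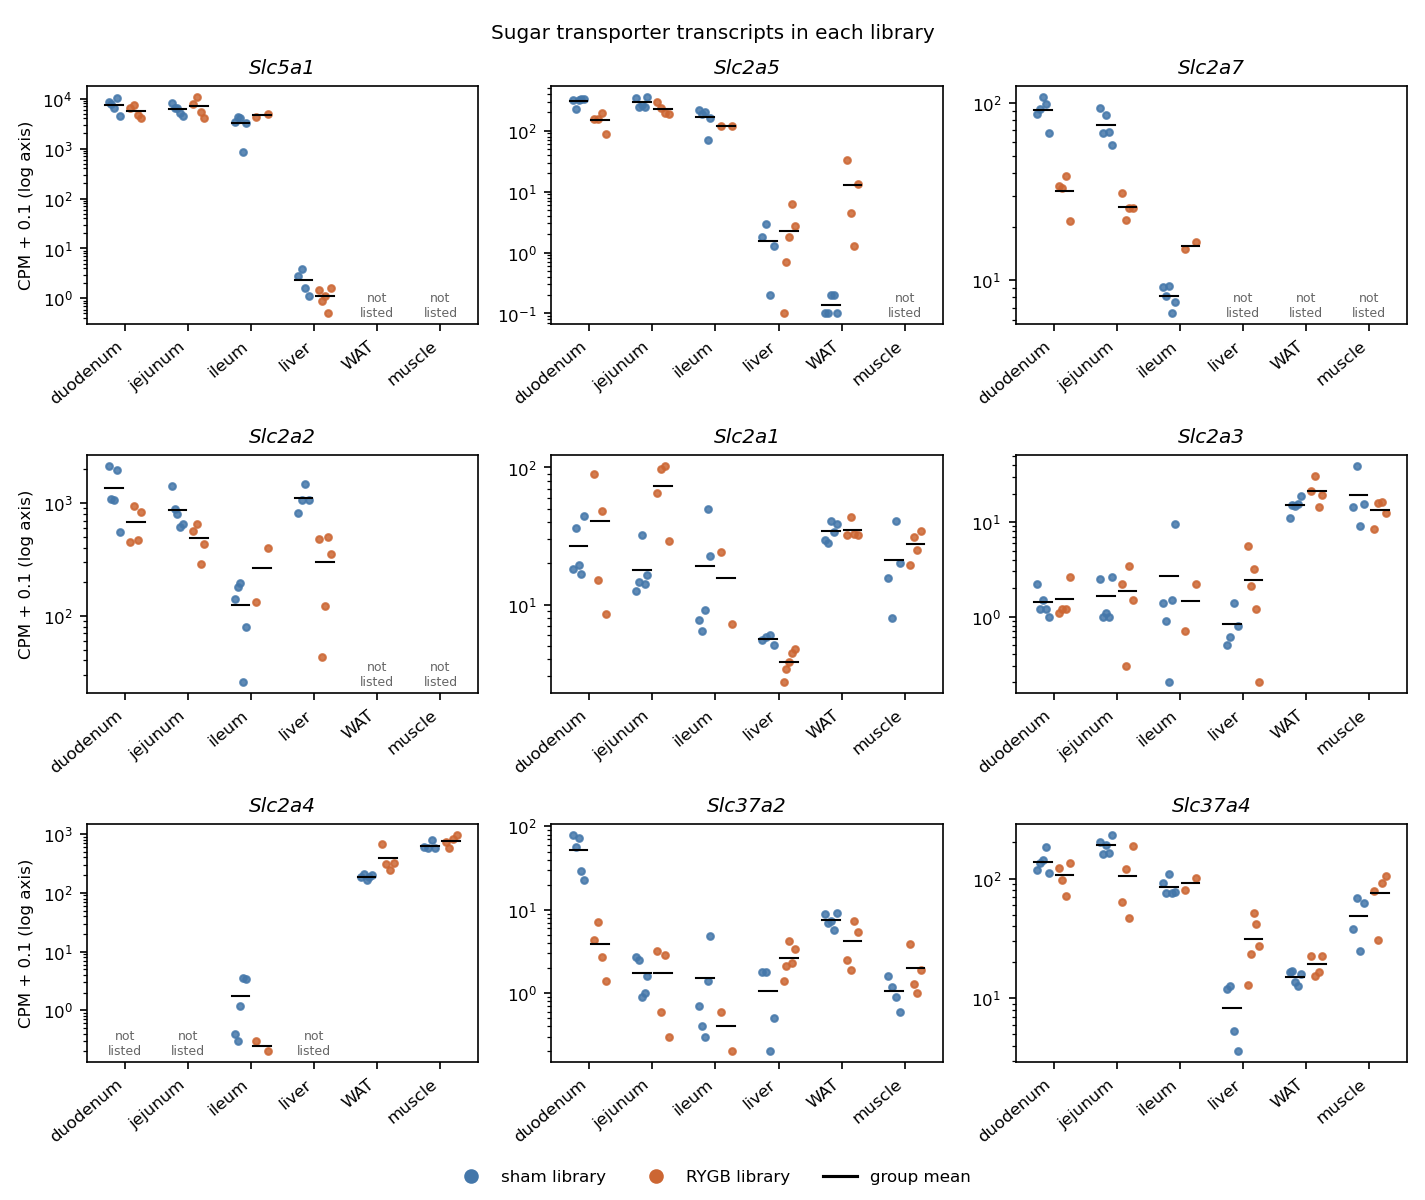
CPM plus 0.1 on a log axis (y) of each of the 9 genes by tissue (x), 1 point per library, blue for sham and orange for RYGB, with black bars for group means. Groups stand apart for Slc2a7 in all 3 gut segments, for Slc2a5 and Slc37a2 in duodenum, for Slc2a1, Slc2a2 and Slc37a4 in liver and for Slc2a4 and Slc2a5 in WAT.

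RYGB libraries were compared with sham libraries in each tissue by limma on log2(CPM + 1), with p-values adjusted by Benjamini-Hochberg across each whole table and a threshold of 0.05. All fold changes below are RYGB minus sham on that scale, which understates the change of genes with few CPM. Of the 43 pairs of gene and tissue, 4 were called higher, 3 fell and 36 did not pass; 1 of the 4, Slc2a5 in WAT, was listed only through its RYGB libraries and had to differ, so its call is no result. In duodenum 2 of 8 genes fell (Slc2a7 and Slc37a2), where 0.348% of all 10930 genes were called, 0.128% higher and 0.22% lower. In jejunum 1 of 8 rose (Slc2a1) and 1 fell (Slc2a7), where 12.6% of all genes were called, 6.32% higher and 6.29% lower. In liver 1 of 7 rose (Slc37a4), where 4.63% were called, 2.03% higher and 2.6% lower. In WAT Slc2a4 rose, and 2 of 6 were called higher with the fixed call of Slc2a5, where 40.6% of all genes were called, 14.3% higher and 26.3% lower, so a call in WAT is common. In ileum and in muscle 0 members passed with limma, as did 0.0% of all genes in each; without adjustment 438 ileum genes and 812 muscle genes had p under 0.05, none of them a member, and no other tool was run. Groups did not overlap for 3 of 8 genes in duodenum, all lower in RYGB (7.58% of all genes, 5.88% higher and 1.69% lower), and for 1 of 8 in jejunum, also lower (14.3%, 7.53% higher and 6.75% lower). They did not overlap for 1 of 9 in ileum, higher in RYGB (8.09%, 3.15% higher and 4.94% lower), and for 3 of 7 in liver, 1 higher and 2 lower (12.3%, 4.34% higher and 8.01% lower). In WAT they did not overlap for 2 of 6, both higher and Slc2a5 again by its listing (33.6%, 11.7% higher and 22.0% lower), and in muscle for 0 of 5 (3.86%, 1.91% higher and 1.96% lower).

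**Figure D3:**
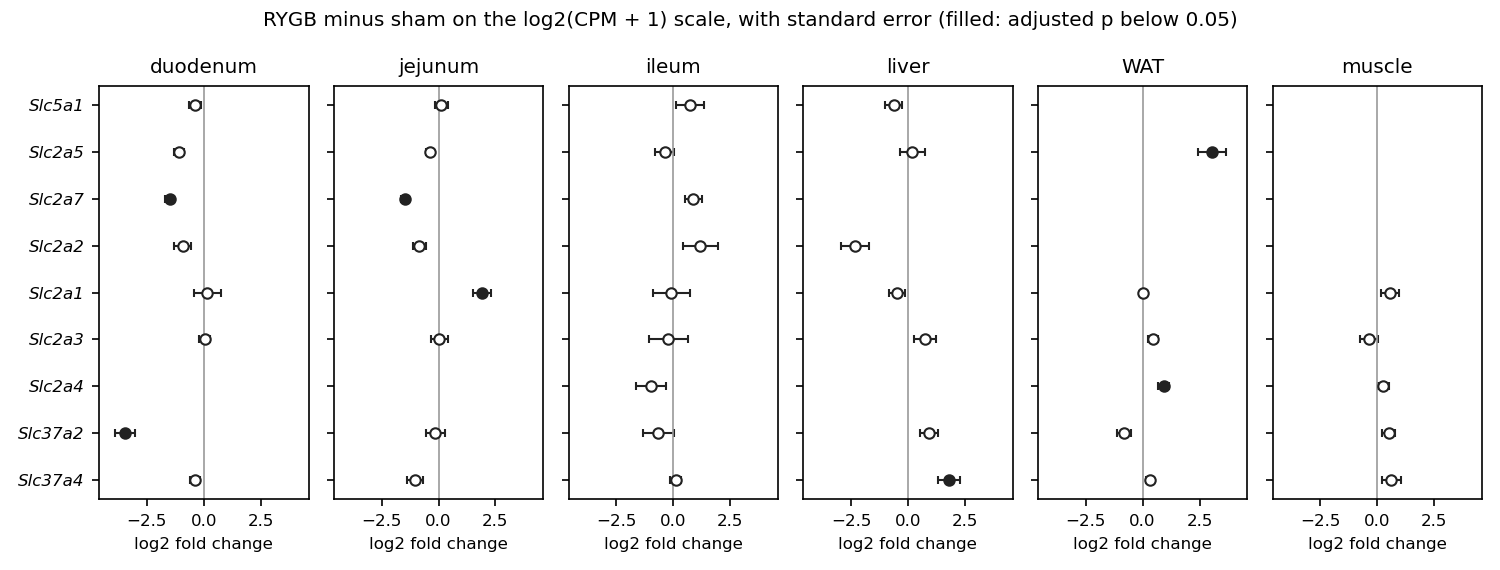
Log2 fold change of RYGB against sham on the log2(CPM + 1) scale with its standard error (x axis), for each gene (y axis) in each tissue (panels); filled points have an adjusted p below 0.05 and genes without a point were not listed. The filled points are Slc2a7 and Slc37a2 below 0 in duodenum, Slc2a7 below and Slc2a1 above 0 in jejunum, Slc37a4 above 0 in liver, and Slc2a4 and Slc2a5 above 0 in WAT, where the listing of Slc2a5 fixed its direction.

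Of the 3 carriers placed at the brush border, Slc2a7 fell after RYGB in both duodenum and jejunum, Slc2a5 was lower in duodenum without passing the threshold, and Slc5a1 passed in no segment. Slc2a5 (chr4:150119283-150144169, GRCm38, plus strand) and Slc2a7 (chr4:150148972-150168482, plus strand) are protein-coding genes that follow each other in the same direction, with 4802 bases from the end of Slc2a5 to the start of Slc2a7. Their promoter windows, 250 bases before to 50 after the start site (RefSeq, GRCm38.p6), are shown because these adjacent genes were both lower in the RYGB duodenum and Slc2a7 also fell in jejunum. Capitals mark the motifs found among those searched on both strands: the GC box GGGCGG, the E box CACGTG, the HIF core motif ACGTG that also lies inside each E box, the TATA box TATAAA, the CCAAT box, the HNF1 core motif GTTAAT and the GATA factor motif GATAAG.
Slc2a5, chr4:150119094-150119393: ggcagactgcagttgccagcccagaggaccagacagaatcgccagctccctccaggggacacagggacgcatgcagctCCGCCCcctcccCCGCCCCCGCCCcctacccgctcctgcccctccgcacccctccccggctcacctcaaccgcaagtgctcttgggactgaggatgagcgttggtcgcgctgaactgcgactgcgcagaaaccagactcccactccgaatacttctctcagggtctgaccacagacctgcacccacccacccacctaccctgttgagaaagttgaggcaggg
Slc2a7, chr4:150148637-150148936: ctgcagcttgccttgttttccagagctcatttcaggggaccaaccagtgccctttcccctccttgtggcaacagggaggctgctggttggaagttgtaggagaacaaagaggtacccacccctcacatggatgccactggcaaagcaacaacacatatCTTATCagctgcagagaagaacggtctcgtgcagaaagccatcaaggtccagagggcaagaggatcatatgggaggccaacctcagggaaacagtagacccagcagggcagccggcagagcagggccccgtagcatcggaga
The Slc2a5 window held 3 GC boxes on the minus strand, read as CCGCCC above, 2 of them side by side; 35.7% of 32851 windows of the same length hold at least 1. The Slc2a7 window held 0 GC boxes and 1 GATA motif on the minus strand, read as CTTATC, which 7.44% of the windows hold. A match is a description of the letters and not a site of binding. The RefSeq starts of both windows differ from the gene coordinates given above, which are from GENCODE. That of Slc2a5 lies inside the gene as given, and the Slc2a7 window ends before its gene begins. RefSeq windows were matched for 7 of the 9 genes, all but Slc2a3 and Slc2a4.

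In duodenum Slc2a7 stood at 86.6, 92.1, 108.1, 98.6 and 67.5 CPM in the 5 sham libraries and at 33.8, 33.1, 38.5 and 21.6 CPM in the 4 RYGB libraries. Every RYGB library lay below every sham library. Slc2a7 fell by 1.5 ± 0.21 (SE; adjusted p = 0.0210 with limma), from a mean of 90.6 ± 15.2 to 31.8 ± 7.18 CPM (SD, n = 5 and 4). In jejunum it stood at 93.2, 68, 85.3, 68.7 and 57.9 CPM in sham and at 30.9, 21.8, 25.5 and 25.6 CPM in RYGB, again without overlap. There it fell by 1.48 ± 0.17 (adjusted p = 0.00270 with limma), and it passed in each of the 9 fits that left out 1 jejunum library. In ileum its 5 sham libraries read 9.1, 8.1, 9.2, 6.4 and 7.4 CPM, and the 2 RYGB libraries, at 14.9 and 16.3 CPM, lay above them all. The ileum difference of 0.89 ± 0.39 did not pass (adjusted p = 1.0 with limma). Across the 8 animals with both upper segments, the effect on Slc2a7 in jejunum minus that in duodenum was −0.04 ± 0.28 (adjusted p = 0.961).

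The duodenal calls depended on single libraries. Slc2a7 passed in 3 of the 9 fits with 1 duodenum library left out; it missed without RYGB 1 (adjusted p = 0.0786), RYGB 4 (0.0702), sham 1 (0.0557), sham 2 (0.0882), sham 3 (0.0690) or sham 4 (0.0508), with fold changes of −1.60 to −1.33. Without the 4 libraries with pancreatic transcripts its fold change was −1.39 (adjusted p = 0.939 with 5 libraries left); with those libraries out, 0 of all genes passed in limma and 378 had an unadjusted p under 0.05. In duodenum crypt and proliferation genes summed to 15.6 to 32.6 CPM in sham and 30.8 to 717.4 CPM in RYGB (1 of 7 rose), Paneth genes to 23.2 to 68.7 and 92.3 to 408.7 CPM (2 of 5 rose), and enterocyte genes to 20475.1 to 54657.8 and 23438.9 to 48078 CPM (1 of 8 fell); their part in the duodenal results was not tested.

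Slc2a5 stood at 320.5, 230.3, 323.2, 334.1 and 334.3 CPM in the sham duodenum and at 156.2, 154.2, 193.9 and 88.6 CPM after RYGB. The groups did not overlap, and the means were 308 ± 44.1 and 148 ± 43.7 CPM. The fold change of −1.09 ± 0.23 just missed the threshold (adjusted p = 0.0540 with limma). It passed when the fit was kept to genes with a mean of at least 5 CPM (0.0487), without RYGB 3 (0.0127) or without sham 5 (0.0381). These were 2 of 9 fits with 1 library left out, and the adjusted p in the rest reached 0.173. It also missed without the libraries rich in pancreatic transcripts. In jejunum the groups overlapped, at 243.2 to 359 CPM in sham and 185.1 to 292.9 CPM in RYGB, with a difference of −0.37 ± 0.19 (adjusted p = 0.211). In ileum the RYGB libraries read 120.9 and 117.9 CPM, within the sham range of 68.9 to 216.4. The effect in jejunum minus that in duodenum was 0.63 ± 0.28 for Slc2a5 and did not pass (adjusted p = 0.236).

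Slc5a1 (chr5:33104219-33162870, plus strand) was the most abundant of the 9 genes in every gut group, and its sham and RYGB libraries overlapped in all 3 segments. The sham duodenum libraries read 8417.2, 7655.1, 6472.9, 10331.6 and 4403 CPM and the RYGB libraries 6388.9, 7449.2, 4619.7 and 4040.5 CPM. In jejunum the values were 8141.3, 6517.4, 6613.4, 5198.3 and 4419.8 CPM in sham and 7853.7, 10829.8, 5366.6 and 4062.2 CPM in RYGB. The jejunal RYGB libraries thus included both the highest and the lowest value of that segment. The differences were −0.39 in duodenum (95% interval −1.0 to 0.22), 0.12 in jejunum (−0.53 to 0.77) and 0.73 in ileum (−0.69 to 2.14), so that changes up to those bounds are not excluded. The ileum library sham 4, which carried the Paneth and crypt genes, had 858 CPM of Slc5a1 against 3308.7 to 4329.2 in the other 4 sham libraries; without it the ileum difference was 0.30. In liver, where Slc5a1 reached at most 3.8 CPM, it did not pass either (−0.63). Its RYGB libraries alone would not have met the authors' filter there, so this difference is only a description.

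Slc2a2 (chr3:28697903-28731359, plus strand), the exit route for sugar from enterocytes and the main hepatocyte carrier, was lower on average after RYGB in duodenum, jejunum and liver, and passed in none of them. In liver it stood at 809.8, 1056, 1481.3 and 1061.6 CPM in sham and at 478.9, 43.1, 121.7, 496.1 and 349.8 CPM in RYGB. All 5 RYGB livers lay below all 4 sham livers, and RYGB 2 and 3 were far below the other 3. RYGB 2 and 3 are among the liver libraries with coarse CPM steps, as is RYGB 4, the highest of the RYGB group. The fold change was −2.33 ± 0.63 (adjusted p = 0.0513 with limma). It passed with median-of-ratios scaling (0.0376), with genes of at least 5 CPM (0.0477), and without RYGB 1 (0.0251), RYGB 5 (0.0428) or sham 1 (0.0449). These were 3 of 9 fits with 1 library left out, and the adjusted p in the rest reached 0.174. It also missed with a pseudocount of 0.1 and with a replicate block. In duodenum the sham libraries read 2141.3, 1096.1, 1056.1, 1951.3 and 553.8 CPM and the RYGB libraries 455.2, 944.4, 467.4 and 832.7 CPM, which overlapped through the lowest sham library (−0.93, adjusted p = 0.184). In jejunum sham stood at 608 to 1412.3 CPM and RYGB at 287.2 to 653.9, also with overlap (−0.84, adjusted p = 0.0814). In ileum the RYGB libraries read 131.6 and 399.4 CPM against 25.4 to 194.6 in sham (1.19, adjusted p = 1.0).

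The transcript of GLUT1, the carrier of basal glucose uptake, rose in jejunum and did not pass in the other 5 tissues. Of the differences between tissues only that with duodenum was tested. Slc2a1 (chr4:119108711-119137983, plus strand) is shown with its promoter window (RefSeq, GRCm38.p6) because it is the only one of the 9 genes that rose in the gut, with the same motifs in capitals.
Slc2a1, chr4:119108495-119108794: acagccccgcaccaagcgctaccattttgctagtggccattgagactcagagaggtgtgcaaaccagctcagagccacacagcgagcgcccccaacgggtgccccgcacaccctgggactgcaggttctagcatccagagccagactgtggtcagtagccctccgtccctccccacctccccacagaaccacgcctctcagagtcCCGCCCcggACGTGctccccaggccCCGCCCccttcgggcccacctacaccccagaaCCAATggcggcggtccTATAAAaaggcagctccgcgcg
The window held 2 GC boxes on the minus strand, and between them 1 ACGTG, which 19.6% of all windows hold. A CCAAT (37.4% of windows) began at base 13 and a TATAAA (13.6%) at base 29 of the transcript as RefSeq places its start; the GENCODE start of the gene lies upstream of the RefSeq one.

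In jejunum Slc2a1 stood at 12.5, 14.4, 31.8, 14 and 16.4 CPM in sham and at 65.2, 97.8, 102.7 and 28.8 CPM in RYGB. The groups overlapped only through sham 3 and RYGB 4. Slc2a1 rose by 1.91 ± 0.38 (SE; adjusted p = 0.0157 with limma), from 17.8 ± 7.94 to 73.6 ± 34.2 CPM (SD), and passed in all 9 fits with 1 library left out (1.70 to 2.30). Paneth cell genes were also higher there, with 4 of 5 past the threshold and sums of 30.2 to 117.1 CPM in sham and 221.7 to 400.4 CPM in RYGB, and crypt and proliferation genes summed to 17.6 to 63.3 and 46.5 to 247.8 CPM (1 of 7 rose). Every RYGB library had a higher Paneth sum than every sham library, and the part of both gene sets in the Slc2a1 result was not tested. In duodenum Slc2a1 ranged from 8.5 to 89.7 CPM in RYGB, wider than the sham range of 16.6 to 44.5, and the difference was 0.16 ± 0.60 (adjusted p = 0.906). The effect in jejunum minus that in duodenum, 1.48 ± 0.48, did not pass (adjusted p = 0.114).

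The lowest Slc2a1 among RYGB mice came from the same animal in each gut segment. The mouse coded R2 had 89.7, 97.8 and 23.9 CPM in duodenum, jejunum and ileum, and the mouse coded R5 had 8.5, 28.8 and 7.1. R4, sampled in the upper segments only, had 48.1 and 102.7 CPM. R5 was thus the lowest RYGB mouse in each segment, and R2 and R4 changed places between the upper segments. For Slc37a4 the mouse R5 was the highest of the RYGB group in each segment, with 133.4, 186 and 101.8 CPM in R5 against 121.5, 119.9 and 80.7 in R2 and 71.6 and 46.5 in R4. These values are given without a test.

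**Figure D4:**
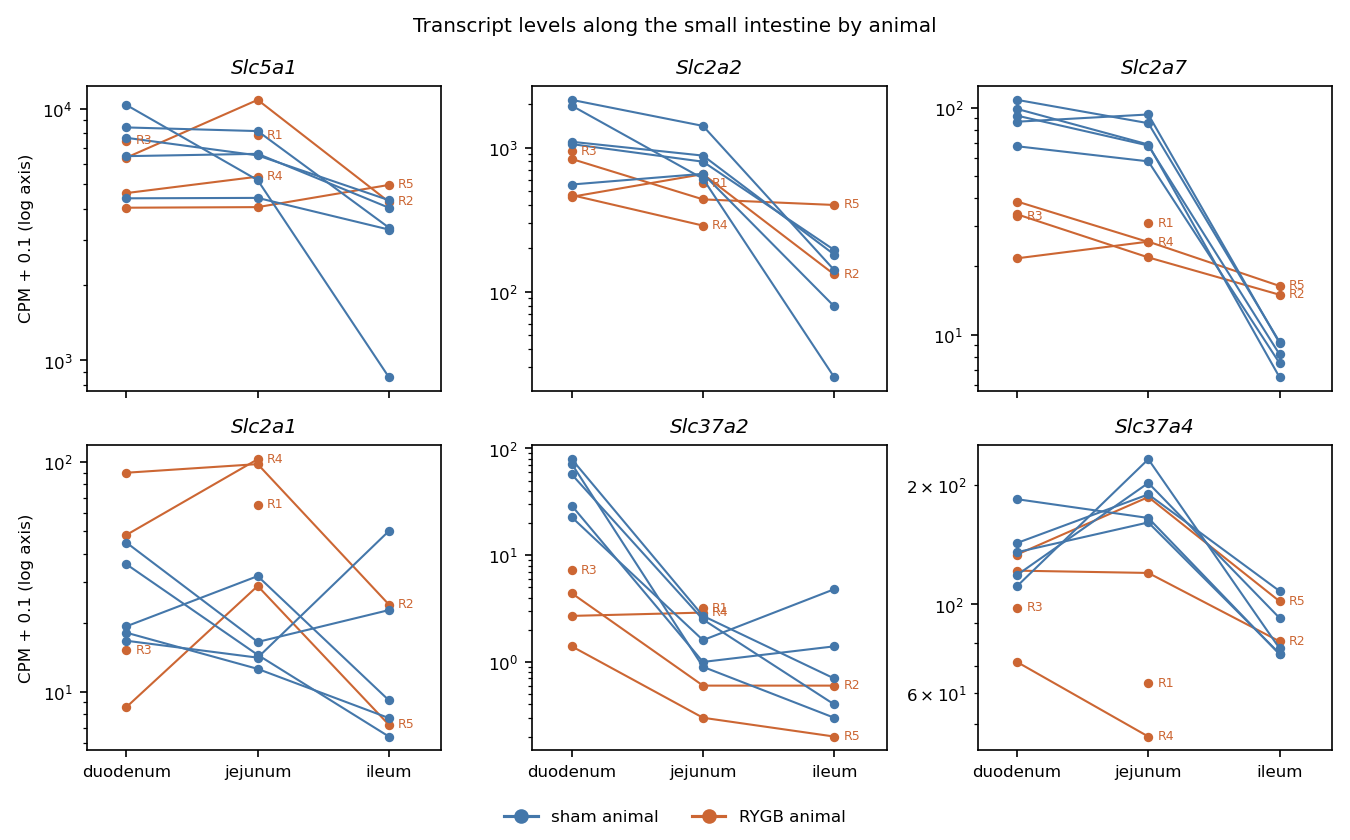
CPM plus 0.1 on a log axis (y) of 6 genes in duodenum, jejunum and ileum (x), with lines joining the libraries of 1 animal, blue for sham and orange for RYGB; RYGB animals are named at their last segment. Slc2a7 lies lower in RYGB animals in the upper segments and higher in ileum, and for Slc2a1 the line of R5 lies below those of R2 and R4.

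Outside the gut, Slc2a1 in liver stood at 5.4, 5.7, 5.9 and 5 CPM in sham and at 2.6, 3.3, 3.7, 4.3 and 4.6 CPM in RYGB. The groups did not overlap, but the difference of −0.48 ± 0.34 did not pass (adjusted p = 0.307). In WAT it stood at 28.2 to 40.5 CPM in sham and 31.8 to 43.2 in RYGB (0.03, 95% interval −0.31 to 0.37), and in muscle at 7.9 to 40.6 and 19.3 to 34.1 (0.55, adjusted p = 0.806). GLUT3, Slc2a3 (chr6:122727809-122801640, minus strand), passed nowhere. Its largest RYGB mean was 21.3 ± 6.74 CPM in WAT against 15.0 ± 2.77 in sham (0.45, adjusted p = 0.120), and it passed there only without RYGB 3 (0.61, adjusted p = 0.0307). In the 3 gut segments and the liver at most 9.4 CPM of Slc2a3 was measured in any library, and its differences there ran from −0.21 to 0.75. The highest, in liver, is only a description, since the sham libraries alone would not have met the authors' filter.

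In WAT the transcript of the insulin-responsive carrier GLUT4 rose after RYGB. That of the fructose carrier GLUT5 was measured in RYGB mice where sham mice had almost none, a contrast that its listing fixed. Slc2a4 (chr11:69942539-69948188, minus strand) stood at 186.6, 211.1, 165.7, 182.5 and 198 CPM in sham and at 669.9, 307.3, 244.6 and 321.1 CPM in RYGB. All RYGB libraries lay above all sham libraries, and RYGB 1 was far above the other 3. Slc2a4 rose by 0.92 ± 0.25 (SE; adjusted p = 0.0145 with limma), from 189 ± 17.0 to 386 ± 192 CPM (SD), and passed in all 9 fits with 1 library left out, with 0.62 as the lowest fold change, without RYGB 1, and 1.10 as the highest. Adipocyte marker genes summed to 8635 to 10494.5 CPM in sham and 9875.7 to 35050.5 CPM in RYGB. Of the 6, Retn and Cfd rose and Lep fell, and 3 lay above and 3 below 0 (median 0.04). Smooth muscle genes summed to 380.7 to 1161 CPM in sham and 91.6 to 199.1 in RYGB (4 listed, 1 rose and 2 fell). Genes of the hepatocyte list summed to 486.2 to 1592.2 and 2817.9 to 16503.3 (6 listed, 1 rose and 2 fell). Neither pair of sums overlapped. Of the 6 hepatocyte genes 1 lay above 0 and 5 below (median −0.73), so the higher sum does not stand for the list. Neutrophil genes summed to 4 to 11.3 and 7 to 47.3 CPM (2 of 3 listed rose). The part of these markers in the WAT results was not tested.

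Muscle, the other tissue with much GLUT4 transcript, had 589.9, 567.7, 787.1 and 584.5 CPM of Slc2a4 in sham and 719.1, 574.3, 820.7 and 968.4 CPM in RYGB. These overlapped, and the difference was 0.27 (95% interval −0.22 to 0.77; adjusted p = 0.838). In ileum Slc2a4 reached at most 3.4 CPM, in the library sham 4, and read 0.2 and 0.1 CPM in RYGB. It met the authors' filter there through its sham libraries alone. The difference of −0.99 did not pass and is only a description.

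Slc2a5 in WAT was listed at 0, 0, 0.1, 0.1 and 0 CPM in the 5 sham libraries and stood at 32.3, 4.3, 1.2 and 13.2 CPM in the 4 RYGB libraries. It passed the authors' filter through the RYGB group alone, so that it had to differ, and the sham values allow no fold. The difference was 3.05 on the log2(CPM + 1) scale and 5.74 with a pseudocount of 0.1, given as a description with no test. The RYGB libraries were spread widely, with RYGB 1 highest and RYGB 3 lowest. Of 8 enterocyte markers the WAT table listed only Anpep, which fell, and Vil1, at 6.4 CPM or less; Slc5a1, Slc2a2 and Slc2a7 were not listed. Lymphocyte genes summed to 41.7 to 72.8 CPM in sham and 21.6 to 653 CPM in RYGB, with the highest sum in RYGB 4, and macrophage genes to 444.1 to 766 and 504.2 to 899.8 CPM (2 of 8 rose, 4 fell). The part of these cells in the Slc2a5 values was not tested. In liver Slc2a5 reached 6.1 CPM at most and did not pass (0.20, adjusted p = 0.817).

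Slc37a2 was many times lower in the RYGB than in the sham duodenum. Slc37a2 (chr9:37227585-37255738, minus strand) stood at 79.2, 57, 71.6, 29 and 22.6 CPM in sham and at 4.3, 7.1, 2.6 and 1.3 CPM in RYGB. The groups were far apart, and the sham mean of 51.9 ± 25.2 CPM was 13.6-fold the RYGB mean of 3.83 ± 2.51. It fell by 3.45 ± 0.43 (SE; adjusted p = 0.0144 with limma). The 3 sham libraries with the highest Slc37a2 and the RYGB library with the highest Slc37a2 are also the 4 libraries with pancreatic transcripts; without them sham 4 and 5 at 29 and 22.6 CPM still lay above RYGB 1, 3 and 4 at 4.3, 2.6 and 1.3, with a fold change of −2.92 that did not pass (adjusted p = 0.517 with 5 libraries left). The call was also lost without RYGB 1 (0.0722), sham 2 (0.0797) or sham 3 (0.0519). In jejunum Slc37a2 was at 0.8 to 2.6 CPM in sham and 0.2 to 3.1 CPM in RYGB (−0.14, adjusted p = 0.847). Within the 8 animals sampled in both segments, the effect in jejunum minus that in duodenum was 3.33 ± 0.53 (adjusted p = 0.0114), where 2.4% of 10663 genes were called, 0.525% higher and 1.88% lower. Slc37a2 was the 1 of 8 genes that passed this test, and it passed in all 8 fits that left out 1 animal. Of the 5 sham animals, 3 gave a duodenum library rich in pancreatic transcripts; in a fit chosen after seeing the data that left them out (2 sham and 3 RYGB animals), the difference was 2.72 and did not pass (adjusted p = 0.344), and limma called 0 of all genes, with 829 at an unadjusted p under 0.05. All 11 listed acinar genes were above 0 in this contrast with every animal (median 5.77), and their part in it was not tested. The duodenal RYGB values of 1.3 to 7.1 CPM reached into the jejunal range.

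In WAT Slc37a2 read 8.7, 6.8, 7.2, 5.6 and 9 CPM in sham and 2.4, 1.8, 7.2 and 5.3 CPM in RYGB. Those groups overlapped through RYGB 3, and the difference of −0.83 ± 0.31 just missed the threshold (adjusted p = 0.0540 with limma). Of the 9 fits with 1 library left out it passed only without RYGB 3 (0.00961) or RYGB 4 (0.0401). In the rest the adjusted p reached 0.136. In liver it read 0.1 to 1.7 CPM in sham and 1.3 to 4.1 in RYGB, and the difference of 0.91 did not pass. Its sham libraries alone would not have met the authors' filter there, so this difference is only a description. In ileum and muscle it reached at most 4.7 CPM and did not pass (adjusted p = 0.769 in muscle with limma). In ileum it read 0.5 and 0.1 CPM in RYGB and met the filter through its sham libraries alone, so that difference is only a description.

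Slc37a4 (chr9:44396852-44402968, plus strand), which feeds glucose 6-phosphatase, rose in liver. It stood at 11.8, 12.5, 5.2 and 3.5 CPM in sham and at 12.9, 23.4, 51.6, 41.5 and 27.3 CPM in RYGB. The groups did not overlap, though RYGB 1 lay just above sham 2. The libraries with coarse CPM steps read 11.8 and 12.5 CPM in sham and 23.4, 51.6 and 41.5 CPM in RYGB. Those without read 5.2 and 3.5 CPM in sham and 12.9 and 27.3 CPM in RYGB. The part of this split in the liver results was not tested. Slc37a4 rose by 1.81 ± 0.47 (SE; adjusted p = 0.0486 with limma), from 8.25 ± 4.57 to 31.3 ± 15.3 CPM (SD, n = 4 and 5). G6pc, the catalytic subunit of glucose 6-phosphatase that works with it, rose too, by 2.52 ± 0.65 (adjusted p = 0.0484), from 66.9 ± 47.8 to 363 ± 260 CPM. Both calls are narrow: each passed in 2 of 9 fits with 1 library left out, and without RYGB 2, 3, 4 or 5 or sham 2, 3 or 4 the adjusted p of Slc37a4 ran from just over 0.05 up to 0.169, with fold changes of 1.52 to 2.04. With a pseudocount of 0.1 the Slc37a4 value was 0.0523. Macrophage genes, 4 of 7 past the threshold, summed to 12.2 to 94.7 CPM in sham liver and 73.1 to 1170.8 CPM in RYGB liver. Hepatocyte genes (2 of 7 rose) summed to 30721.5 to 45066.1 and 40638 to 115953 CPM; the part of either in these values was not tested.

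In jejunum Slc37a4 read 201.8, 160.6, 188.9, 164.8 and 231.5 CPM in sham and 63.3, 119.9, 46.5 and 186 CPM in RYGB. RYGB 4, from the mouse R5, was at the sham level and the other 3 were below it. The difference of −1.05 ± 0.35 did not pass (adjusted p = 0.0722 with limma). Of the 9 fits with 1 library left out it passed only without RYGB 4 (−1.40, adjusted p = 0.00557). In the rest the adjusted p reached 0.171. In duodenum (−0.39, adjusted p = 0.308), ileum (0.10), WAT (0.32) and muscle (0.62) the groups overlapped and the differences did not pass. With median-of-ratios scaling the WAT difference passed (0.50, adjusted p = 0.0324).

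Of 15 further sugar carriers, 11 were listed in jejunum and 4 of them fell, where 6.29% of all genes were called lower. The median was −0.25 over the list against 0.08 over all genes. Slc5a4b fell by 2.99 ± 0.64 (adjusted p = 0.0188), from 490 ± 65.1 to 115 ± 163 CPM, and Slc5a4a by 2.24 ± 0.55 (adjusted p = 0.0292); both belong to the SGLT3 group of the SGLT1 family. Slc5a11, a sodium-coupled inositol carrier, fell by 1.43 (adjusted p = 0.0202), and Slc2a9, the urate carrier GLUT9, by 0.85 (adjusted p = 0.0202). Slc5a4b missed the threshold without RYGB 1 or RYGB 3 (up to 0.0521) and Slc2a9 without RYGB 3 or sham 1 (up to 0.0586), while Slc5a11 and Slc5a4a passed in only 4 and 2 of the 9 fits with 1 library left out. Slc5a4b in RYGB 4, from the mouse R5, was at 359.2 CPM, the highest of its group. For Slc5a4b the effect in jejunum minus that in duodenum was −4.40 ± 0.61 (adjusted p = 0.0104; not called without the 3 sham animals with pancreatic transcripts), and the duodenum itself, at 8.7 to 61.7 CPM in sham and 53.6 to 210.3 CPM in RYGB, did not pass (1.61, adjusted p = 0.162). In WAT 14.3% of all genes were called higher and 26.3% lower. Of 8 listed there, Slc2a10 fell by 1.15 (adjusted p = 0.00572 with limma). Slc2a8, an intracellular GLUT, rose by 0.39 (adjusted p = 0.0488 with limma, called in 2 of 9 fits with 1 library left out). The other 4 tissues had 0 calls in this list, and Slc37a1 passed in none.

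The hexokinases Hk1 and Hk2 rose in the RYGB jejunum. Of 10 listed genes of sugar phosphorylation and glucose release, 3 rose there and 0 fell (median 0.24). Over all jejunum genes, 6.32% were called higher and 6.29% lower. Hk2, a hexokinase that traps glucose in the cell, stood at 7.4 to 16.3 CPM in sham and 16.7 to 485.6 CPM in RYGB and rose by 3.04 ± 0.75 (adjusted p = 0.0281). Hk1 rose by 1.79 ± 0.44 (adjusted p = 0.0273). With 1 library left out Hk1 passed in 4 and Hk2 in 3 of 9 fits. Hk1 and Hk2 both missed without RYGB 1, RYGB 3, sham 2, sham 3 or sham 4, and Hk2 also without sham 1, at adjusted p values of up to 0.0783 and 0.0723. In liver, where 2.03% of all genes were called higher, G6pc alone of 9 rose (list median 1.16 against 0.26 over all genes). In WAT 3 of 9 listed rose, Pgm2 (1.11) and Galt (0.68) among them, and Hk1 fell by 0.75. Over all genes there, 14.3% were called higher and 26.3% lower. Galt was called in 1 of 9 fits with 1 library left out, Pgm2 and Hk1 in all 9.

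Digestive enzymes of the brush border that supply these carriers were in part lower in jejunum. Of 8 genes for disaccharidases and the sodium pump, Treh (trehalase) fell by 1.37 ± 0.17 (adjusted p = 0.00296), from 2433 ± 194 to 954 ± 194 CPM, and passed in all 9 fits with 1 library left out. Lct (lactase) fell by 1.69 ± 0.36 (adjusted p = 0.0183), at 3472.6 to 6179.2 CPM in sham and 1065.7 to 3864.8 in RYGB, and missed the threshold without RYGB 1, RYGB 3 or sham 2 (up to 0.0526). Over all jejunum genes 6.29% were called lower. The list median there was −0.16 against 0.08 over all genes, and 0 of 8 passed in duodenum (median −0.50) and in ileum (0.25). In WAT, where 14.3% of all genes were called higher, Atp1b3, a sodium pump subunit, rose by 0.48 (adjusted p = 0.0262 with limma, 4 of 9 fits). In fructose metabolism Khk, the ketohexokinase that starts fructose use, rose in WAT by 0.84 ± 0.19 (adjusted p = 0.00646), from 3.2 ± 0.45 to 6.58 ± 1.52 CPM, in all 9 fits, as the 1 of 5 listed that passed. Sord fell in jejunum by 1.14 (adjusted p = 0.0497), in 1 of 9 fits with 1 library left out. Khk passed in no other tissue.

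In WAT some genes of GLUT4 traffic within the cell, and some regulators of sugar carriers, rose and others fell. Of all genes in that tissue 40.6% were called, 14.3% higher and 26.3% lower. Of 12 listed genes of GLUT4 traffic, 2 rose, 4 fell and 6 did not pass, shares near those of all genes (median −0.39 against −0.16 over all genes). Vamp2 fell by 0.62, Lnpep by 1.5, Myo1c by 1.02 and Cltc by 0.72, with adjusted p values of 0.00547, 0.00642, 0.00845 and 0.0135, each in all 9 fits with 1 library left out. The 2 that rose, named after their values were seen, were Stx4a by 0.62 (adjusted p = 0.0150) and Aspscr1 by 0.39 (0.0431), the latter in 2 of 9 such fits. Of 12 listed regulators, 3 rose, 5 fell and 4 did not pass. Txnip, which restrains glucose uptake and responds to sugar supply, fell by 1.22 ± 0.15 (adjusted p = 0.000283), from 3739 ± 327 to 1607 ± 138 CPM. Mef2a fell by 0.78 (adjusted p = 0.00319), and Mlx and Ppargc1a rose by 0.85 and 1.16 (adjusted p = 0.00412 and 0.00422), in all 9 fits for these 4 genes. Txnip passed in no other tissue, with differences of −0.75 in ileum to 0.50 in liver. In jejunum Ppargc1a fell by 1.07 (adjusted p = 0.0222) and Klf15 by 1.58 (0.0243), and Hnf4a, a regulator of enterocyte genes, rose by 0.62 (0.0447). With 1 jejunum library left out they passed in 4, 3 and 2 of 9 fits, and Hnf4a also missed with median-of-ratios scaling (0.0793). The traffic genes Sort1 and Myo1c rose in jejunum by 0.63 and 1.52 (adjusted p = 0.0448 and 0.0482), and both missed with that scaling (0.120 and 0.0514).

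Over the 12 means of tissue and operation, the genes most like each member found in all 6 tables were listed among 7676 genes by the Pearson correlation of log2(mean CPM + 1), as a description; the means of a tissue share its table and animals. Slc2a1 was most like Acot9 (r = 0.931), Gpatch11 and Tspan6, and Slc2a3 most like Acacb (r = 0.988), Cib2 and Clpb. Slc37a4 was most like Slc35e1 (r = 0.956), Pak1 and Mfsd7b. Slc37a2 had the weakest match, with Ncoa4 at r = 0.801, then Chml and Caprin2.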

How the data were processed

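Messenger RNA of villi from 3 gut segments, liver, subcutaneous WAT and gastrocnemius muscle was sequenced by the authors. They deposited gene-level CPM (reads counted per gene with HTSeq on GRCm38, per the submitters' processing notes), in 1 table per tissue with 1 decimal. Aligner, HTSeq version and strand setting: not given in the sources used here; strand matters for Slc2a3 and Slc5a1, which overlap other annotated loci. Which limb of the operated jejunum was sampled is not given either. The 9 genes and all gene lists were chosen with earlier results of these data known. Repeated lines (339 in ileum, 374 in WAT) and lines without a gene name (2 in ileum, 6 in liver) were left out. Since no read counts are recoverable for most libraries, limma 3.58.1 (R 4.3.3; trended, robust empirical Bayes) was fitted per tissue to log2(CPM + 1) with the operation as its term, two-sided, on 10285 to 12690 genes, with Benjamini-Hochberg adjustment over all of them. The pseudocount of 1 makes fold changes of low genes too small. Jejunum against duodenum was fitted within the 8 animals sampled in both (5 sham, 3 RYGB), with the animal as a block and a term for segment by operation. No label says that a group's libraries are repeats of 1 mouse, and animal codes differ between them, so libraries were counted as separate animals; 0 pairs held identical values. Tested on simulated data, these fits recovered 22 (ileum) to 94 (muscle) of 100 genes given a log2 change of 2, and 48 in liver. For a change of 1 they recovered 1 in ileum, 4 in liver, 4 in the segment comparison, 39 in duodenum, 45 in jejunum, 51 in muscle and 58 in WAT. The simulated noise was independent between genes, without effects shared by a whole library. Genes named are the 9; per list and tissue, up to 4 that passed with the smallest adjusted p; Hk1, Hk2, Khk, G6pc, Txnip, Slc2a9 and Slc37a1 where of interest; and the 3 genes most like each member listed in all 6 tables, among genes with a mean of at least 5 CPM. Levels per kilobase use exon lengths and coordinates of GENCODE M21. Alternatives were a pseudocount of 0.1, median-of-ratios scaling, a mean of at least 5 CPM, a replicate block, leaving out each library, and the duodenum, and the segment comparison (added after seeing the data), without libraries rich in pancreatic transcripts. Tables were handled in Python 3.11.15 with pandas 2.3.3 and drawn with matplotlib 3.10.9. A few genes that the naming rule takes in are not reported here.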

Additional observations from a re-analysis of the deposited data

Results flagged for a closer look

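Within groups of 4 or 5 libraries, 77 in all, 7 libraries stood far from the others by Dixon's criterion, which flags about 1 in 20 groups by chance. They were Slc2a1 in the jejunum library sham 3 (31.8 CPM) and the WAT library RYGB 2 (43.2 CPM), Slc2a3 in the duodenum library RYGB 4 (2.5 CPM) and the ileum library sham 5 (9.4 CPM), Slc2a4 in the muscle library sham 3 (787.1 CPM), Slc2a5 in the duodenum library sham 2 (230.3 CPM) and Slc37a2 in the ileum library sham 5 (4.7 CPM). The effect of RYGB on Slc37a2 differed between segments, by 3.33 for jejunum minus duodenum on the log2(CPM + 1) scale, in a model with a term for that difference; without the 3 sham animals with pancreatic transcripts it was 2.72 and did not pass. Slc2a5 lay above every sham library in WAT (3.05) and below every sham library in duodenum (−1.09); its direction in WAT was fixed, since the gene is listed there only through its RYGB libraries. Slc2a7 lay above in ileum (0.89) and below in duodenum (−1.5) and jejunum (−1.48). These opposite directions of Slc2a5 and Slc2a7 were not tested as differences between tissues.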

How the results depend on the processing

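Of 627 values of the genes under alternatives (51 results), 551 kept direction and side of the threshold, 21 lost the call, 13 gained it and 42 changed sign, all in 14 results none of which passed. Without the libraries rich in pancreatic transcripts, the count of genes past the threshold was 0 in duodenum and 0 for the segment difference (the latter chosen after seeing the data), where Slc2a7 changed sign (0.05). In duodenum the count was 0 to 3 with 1 library left out. In liver it was 0 with a pseudocount of 0.1, 2 with median-of-ratios scaling and 2 with a mean of at least 5 CPM. There it was 0 with a replicate block and 0 to 2 with 1 library left out. In WAT it was 2 to 4, and each of these counts includes the fixed call of Slc2a5. Signs changed with median-of-ratios scaling for Slc2a1 in duodenum (−0.01) and ileum (0.02), Slc2a3 in duodenum (−0.05) and jejunum (−0.04), and the segment difference of Slc2a7 (0.10). They changed with a pseudocount of 0.1 for Slc2a3 in jejunum (−0.13), and with the replicate block for Slc2a1 in ileum (0.84) and Slc2a3 in duodenum (−0.02) and ileum (0.13). With 1 library left out, Slc2a1 ran from −0.39 to 0.69 in duodenum, −0.89 to 0.73 in ileum and −0.07 to 0.09 in WAT. Slc2a3 ran from −0.15 to 0.15 in duodenum, −0.23 to 0.38 in jejunum, −0.69 to 0.29 in ileum and −0.63 to 0.03 in muscle. Slc2a5 in liver ran from −0.17 to 0.54, Slc5a1 in jejunum from −0.12 to 0.35, Slc37a2 in jejunum from −0.42 to 0.17 and Slc37a4 in ileum from −0.07 to 0.26. With 1 animal left out the segment difference ran from −0.26 to 0.46 for Slc2a2, −0.73 to 0.15 for Slc2a3 and −0.31 to 0.11 for Slc2a7. The cause of these changes was not tested. Ileum fits without 1 RYGB library leave 1, assumed to vary like the rest. Scaling shifted the median gene by 0.156 in duodenum, 0.176 in liver, −0.167 in WAT and −0.126 in the segment difference (CPM minus scaled), and turned the WAT calls over all genes from 1812 higher and 3341 lower to 2681 and 2593. Replicate numbers name different mice and do not pair them (22 same-number pairs, r −0.352 to 0.556); with the block, genes called over whole tables went from 38 to 441 in duodenum, 1390 to 474 in jejunum, 0 to 597 in ileum, 476 to 7 in liver, 5153 to 4086 in WAT and 0 to 2 in muscle. Other counts that moved by over 1.5 times were 105 in duodenum with a mean of at least 5 CPM, 0 without the pancreatic-rich libraries, and 992 in liver with scaling. Leaving out 1 library gave 1 to 982 genes in duodenum, 484 to 2258 in jejunum, 0 to 46 in ileum, 3 to 2253 in liver, 3936 to 6151 in WAT, 0 to 24 in muscle and 59 to 312 for the segments. In ileum, 2 RYGB libraries limit what can be detected.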
